A study of Drosophila simulans with 4 samples.

Results

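The peptidoglycan recognition proteins (PGRPs) are the family of genes by which a fly senses bacterial cell walls. The members were chosen by name and FlyBase identifier, 10 genes in all, and 8 of them had values among the 15358 genes of the series. They were PGRP-SA (FBgn0030310), PGRP-LC (FBgn0035976), PGRP-LE (FBgn0030695), PGRP-LA (FBgn0035975), PGRP-LF (FBgn0035977), PGRP-SB1 (FBgn0043578), PGRP-SB2 (FBgn0043577) and PGRP-SC2 (FBgn0043575). PGRP-SD (FBgn0035806) and PGRP-LB (FBgn0037906) were not analysed here. The rule goes by name and sets no threshold on a value, although the family was chosen with earlier results of these data known.

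Whole bodies of adult D. simulans males were compared between a derived population from Gotheron in France and a population from Mayotte, within the ancestral range of the species. Each population gave 1 library from males kept on a natural medium and 1 from males kept on cornmeal, so there were 4 libraries: Gotheron natural (NG), Gotheron cornmeal (CG), Mayotte natural (NM) and Mayotte cornmeal (CM). Apple served as the natural medium for the Gotheron flies and banana for the Mayotte flies. Each library pooled 100 males, each the offspring of a different wild-caught female, from 4 RNA extractions. The males had been grown for 7 days per the labels, whereas the methods give a shorter time of aging after emergence. No mutant, transgene or infection was part of the design. According to the methods, however, the natural medium in Mayotte was contaminated by bacteria, and for that reason the study left immunity genes out of its own tests. With 1 library for each population and medium, the banana, the bacteria and anything else particular to the NM flies cannot be told apart.

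Peptidoglycan is the mesh that gives bacterial walls their strength, and flies sense it with PGRPs. In D. melanogaster, from which the roles given here are known, peptidoglycan of the kind found in most Gram-positive cocci is bound by circulating PGRP-SA and starts the Toll pathway. The kind found in Gram-negative bacteria is bound by PGRP-LC at the cell surface and PGRP-LE, and starts the Imd pathway, which ends in the NF-κB factor Relish and in the transcription of antimicrobial peptide genes. Other PGRPs are amidases, enzymes that cut peptidoglycan, and several of these are themselves transcribed when Imd is active and dampen the response by removing its trigger.

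The values were normalised counts, that is, reads per gene multiplied by 1 factor per library that gave all libraries the same total. Reads came from the 3′ end of each transcript, so levels of different genes were set side by side without a correction for length. Differences between genes in how well their reads mapped were not analysed here. Depth on the listed genes lay between 9829895 and 10365609 reads, and 14257 to 14481 genes had at least 1 read in a library. Of the 8 PGRP genes, 6 averaged 5 or more over the libraries, and 2, PGRP-LF and PGRP-SB2, did not. The family was a small part of the RNA, at 0.0171% of the values in NG, 0.0175% in CG, 0.0319% in NM and 0.0162% in CM. The NM library held the largest share. In whole bodies, more cells of a type and more RNA per cell cannot be told apart. Genes are listed by identifier, and the sources used here pair only those of the PGRP genes with names, so the other genes of the Toll and Imd pathways and markers of the tissue were not analysed here.

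PGRP-SB1 and PGRP-SC2, both secreted amidases, were high in the NM library. PGRP-SB1 had a normalised count of 168 in NG and 155 in CG, and of 976 in NM and 255 in CM. PGRP-SC2 had 330 in NG and 376 in CG, and 808 in NM and 341 in CM. For both genes the NM value stood apart, and the remaining 3 libraries lay near each other for PGRP-SC2, where the highest of them was 1.14 times the lowest. For PGRP-SB1 that ratio was 1.64, because CM lay above both Gotheron libraries. The NM value was 3.83 times the highest of the other libraries for PGRP-SB1 and 2.15 times for PGRP-SC2. Among the 12508 genes that averaged 5 or more, 0.504% stood 2-fold or more above every other library in NM. The share was 0.25% among the 6010 genes averaging 100 to 1000, the range in which all 6 measured PGRP genes lay. NM was the highest library for 5 of these 6, PGRP-LE being the exception, and for 15.5% of the 12508 genes. For PGRP-LA and PGRP-SA the lead of NM over the next library, NG and CM, was within counting error.

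**Figure D1:**
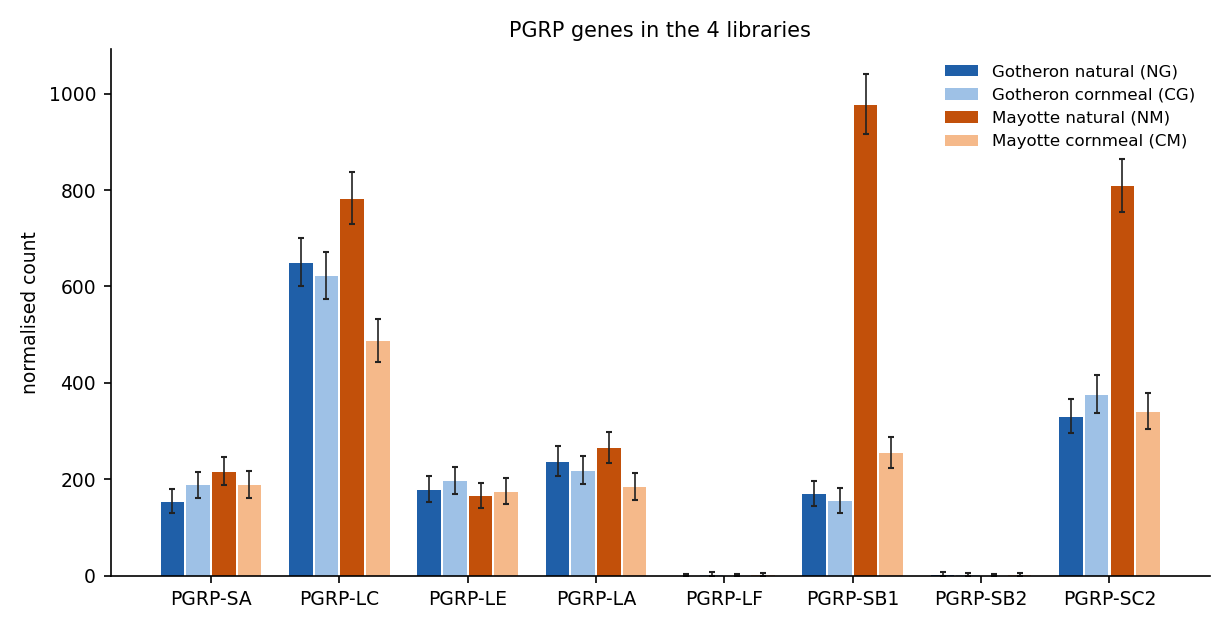
Normalised count (vertical axis, linear from 0) of the 8 PGRP genes in the Gotheron natural, Gotheron cornmeal, Mayotte natural and Mayotte cornmeal libraries, with 1 bar per library and 95% Poisson counting intervals as error bars. PGRP-SB1 and PGRP-SC2 stand at 976 and 808 in the Mayotte natural library, while PGRP-LF and PGRP-SB2 lie at or near 0 in every library.

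The order of the 6 measured genes changed with the library. PGRP-LC was the most abundant in NG, CG and CM, followed by PGRP-SC2. In NM, PGRP-SB1 came first at 976 (95% Poisson interval 916 to 1040), ahead of PGRP-SC2 at 808 (754 to 865) and PGRP-LC at 782 (729 to 838). The intervals of PGRP-SC2 and PGRP-LC overlapped, so their order in NM was not resolved at this depth. In Gotheron PGRP-SB1 was among the least abundant of the 6, ranking 5 in NG at 168 (144 to 196) and 6 in CG at 155 (131 to 182). Its CG interval overlapped those of PGRP-LE and PGRP-SA. In CM it ranked 3, at 255 (224 to 288). PGRP-SB1 stood at the 60.7 percentile of all listed genes in NG and the 58.4 in CG, and at the 90.2 percentile in NM and the 69.7 in CM. PGRP-SB1 and PGRP-SC2 together made up 29% of the family's normalised counts in NG and 30.2% in CG, and 55.6% in NM and 36.5% in CM. These intervals, and those below, cover counting error only.

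The 2 receptors of the Imd pathway differed from each other. PGRP-LC, the main surface receptor of the pathway, had 649 in NG against 621 in CG, and 782 in NM against 487 in CM. NM was again the highest library and CM the lowest. PGRP-LE, which also acts inside cells, had 178 in NG against 196 in CG, and 165 in NM against 174 in CM. Its 4 values lay within a narrow band, with an own dispersion of 0.989 between libraries, close to the value of 1 that counting error alone gives. PGRP-SA, the circulating recognition protein upstream of Toll, had 152 in NG against 187 in CG, and 215 in NM against 188 in CM. The NM value was the highest of its 4 values and the NG value the lowest.

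PGRP-LA and PGRP-LF are members without amidase activity that modulate Imd signalling in D. melanogaster, PGRP-LF as an inhibitor at the membrane. PGRP-LA had 236 in NG against 218 in CG, and 265 in NM against 184 in CM. Its order over the libraries, NM, NG, CG and CM from high to low, was that of PGRP-LC. In PGRP-LA no step between neighbours in this order went beyond counting error, nor did that from NG to CG in PGRP-LC. PGRP-LF had 0 reads in NG, 2 in CG, 0 in NM and 1 in CM. PGRP-SB2, a predicted amidase, had 2 reads in NG, 1 in CG, 0 in NM and 1 in CM. Neither gene reached a level at which a difference could be seen, and a library with 0 reads allows a normalised count of up to 3.68 in NG and 3.58 in NM (upper 95% Poisson limit). By role, the 3 amidases with values summed to 500.3 in NG against 532 in CG, and to 1783 in NM against 596 in CM. Nearly all of these sums came from PGRP-SB1 and PGRP-SC2. Without PGRP-SB1 and PGRP-SC2 the other 6 members summed to 1218 in NG against 1225 in CG, and to 1427 in NM against 1035 in CM.

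The media were first compared within each population, from 1 library on each medium and without a test. In Gotheron the ratio of natural over cornmeal was close to 1 throughout. It was 1.09 for PGRP-SB1 (95% Clopper-Pearson interval 0.868 to 1.36, from 169 and 153 reads), 1.09 for PGRP-LA (0.898 to 1.31) and 1.05 for PGRP-LC (0.935 to 1.17). It was 0.908 for PGRP-LE (0.737 to 1.12), 0.878 for PGRP-SC2 (0.755 to 1.02) and 0.814 for PGRP-SA (0.653 to 1.01). All 6 intervals included 1, as did those of 61.7% of the 12508 genes and 56% of the 6010 genes averaging 100 to 1000, so that most genes shared this. Further, 0 of the 6 genes differed 2-fold in either direction, against 6.59% of the 12508 genes, which include genes averaging as little as 5.

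In Mayotte the same ratio was 3.83 for PGRP-SB1 (3.33 to 4.42, from 1006 and 249 reads) and 2.37 for PGRP-SC2 (2.09 to 2.7, from 833 and 333 reads). It was 1.61 for PGRP-LC (1.43 to 1.8) and 1.44 for PGRP-LA (1.19 to 1.75). For PGRP-SA it was 1.14 (0.937 to 1.4) and for PGRP-LE 0.948 (0.762 to 1.18), and both intervals included 1. So 4 of the 6 measured genes lay above 1 beyond counting error, as did 11.1% of the 12508 genes and 11.9% of the 6010 genes averaging 100 to 1000, and 2 of the 6 reached a ratio of 2. A ratio of 2 or more was seen in 2.69% of the 12508 genes and in 0.499% of the 6010 genes averaging 100 to 1000. Among those 6010 genes, 12 had a Mayotte ratio as high as that of PGRP-SB1 or higher, itself included, and 20 as high as that of PGRP-SC2. The corresponding numbers were 90 for PGRP-LC and 181 for PGRP-LA. On the log2 scale the median over the 6 genes was -0.038 in Gotheron and 0.60 in Mayotte, and the median over all 12508 genes was -0.023 in Gotheron and -0.030 in Mayotte.

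**Figure D2:**
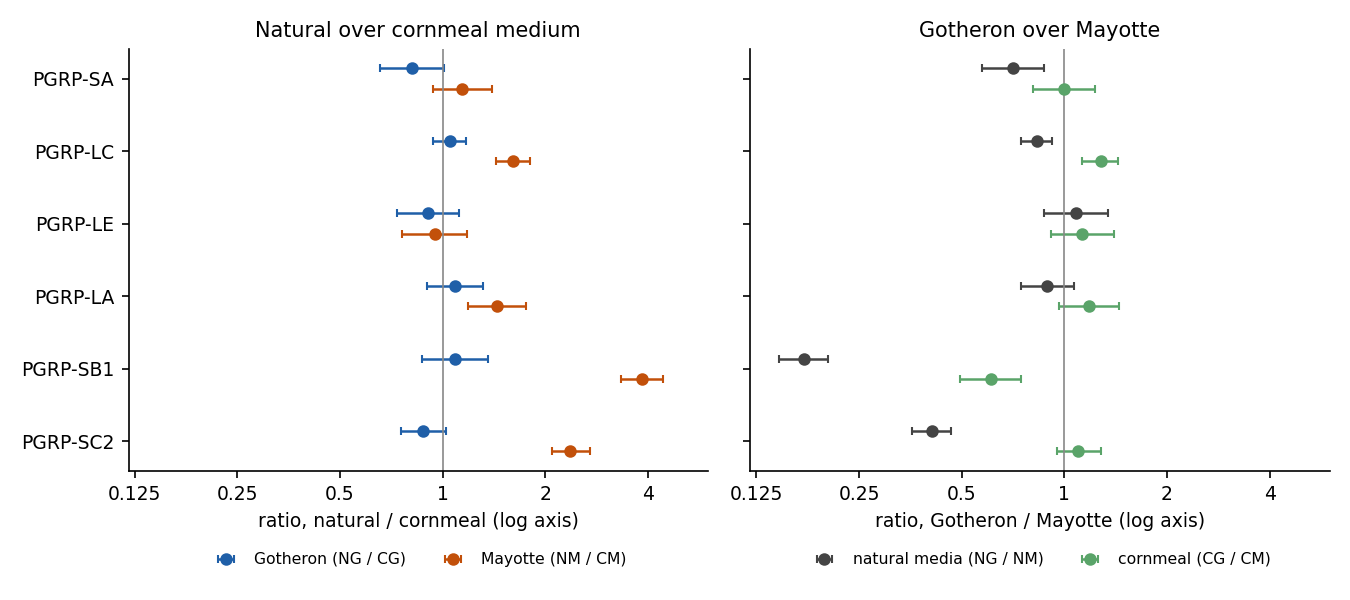
Ratios of normalised counts between single libraries for the 6 measured PGRP genes, on log axes, with natural over cornmeal medium in the left panel and Gotheron over Mayotte in the right one. Points are ratios and bars 95% Clopper-Pearson intervals for counting error. The Gotheron medium ratios all lie near 1, whereas the Mayotte ratios of PGRP-SB1 and PGRP-SC2 reach 3.83 and 2.37.

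The medium was then tested over all 4 libraries with an overdispersed Poisson model fitted in 2 steps after the methods of the study, in which a gene takes its dispersion from a curve through genes of like mean. The second step was here a Wald test, whereas the study used a likelihood ratio test and tested the populations and not the media. With the likelihood ratio test the same 2 members passed for the medium and for the population. On simulated data both tests made more false calls than their threshold allows. Natural over cornmeal, PGRP-SB1 averaged 572 ± 571 on the natural media and 205 ± 70.5 on cornmeal (SD, n = 2 each), a log2 ratio of 1.48 with a standard error of 0.21 and a Benjamini-Hochberg adjusted p of 1.42e-09. PGRP-SC2 averaged 569 ± 338 on the natural media and 358 ± 24.8 on cornmeal, a log2 ratio of 0.67 with a standard error of 0.19 and an adjusted p of 0.0354. These 2 members of the 8 passed the threshold, beside 1.22% of all genes. In neither did the media separate: NG lay below CM in both genes, and below CG in PGRP-SC2. For PGRP-LC and PGRP-LA both natural libraries lay above both cornmeal libraries, as they did in 12.5% of the 12508 genes. Their log2 ratios were 0.37 and 0.32, with adjusted p-values of 0.551 and 0.748.

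The 2 calls rested on Mayotte. Without NM or without CM the ratio comes from Gotheron alone, and the log2 ratio was then 0.12 for PGRP-SB1 and -0.19 for PGRP-SC2, with adjusted p-values from 0.898 to 1. Without either Gotheron library the log2 ratio was 1.94 for PGRP-SB1 and 1.25 for PGRP-SC2. With a quadratic dispersion curve PGRP-SC2 did not pass, at an adjusted p of 0.0579. The spread over all libraries around 1 mean was 62.7 times the value on the dispersion curve for PGRP-SB1 and 15.4 times for PGRP-SC2. That spread includes the differences between media and populations under test, so it is not an error between replicates. The 2-step standard errors describe genes of like mean more than these genes. Limma, which uses each gene's own spread as well, called 0 members for the medium, beside 0.016% of the genes tested, and 1 member, PGRP-SB1, had an unadjusted p under 0.05 (0.012, with an adjusted p of 0.585), as did 6.89% of the genes tested.

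The medium ratios of the populations were then set against each other with an interaction term. No population and medium had a second library, so this term has no replicate check. Its standard errors and p-values rest on the dispersion of other genes of like mean. For PGRP-SB1 and PGRP-SC2 that was far below their own spread over all libraries, which includes the differences tested. The difference of the log2 ratio of natural over cornmeal, Gotheron minus Mayotte, was -1.82 with a standard error of 0.48 for PGRP-SB1 (adjusted p = 0.0363) and -1.43 with a standard error of 0.39 for PGRP-SC2 (adjusted p = 0.0439). An adjusted p under 0.05 was found for 0.508% of all genes. The test made more false calls than its threshold allows on simulated data. The interaction term compares these 4 libraries and does not show that the populations differ in their response to a medium. The difference was negative for the other 4 measured genes as well, at -0.62 for PGRP-LC, -0.49 for PGRP-SA, -0.41 for PGRP-LA and -0.062 for PGRP-LE, with adjusted p-values from 0.742 to 1. These 6 differences share the same 4 libraries, and the NM library enters all of them. With a quadratic in place of the Loess dispersion curve the adjusted p was not under 0.05 for either gene, at 0.061 for PGRP-SB1 and 0.0686 for PGRP-SC2.

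**Figure D3:**
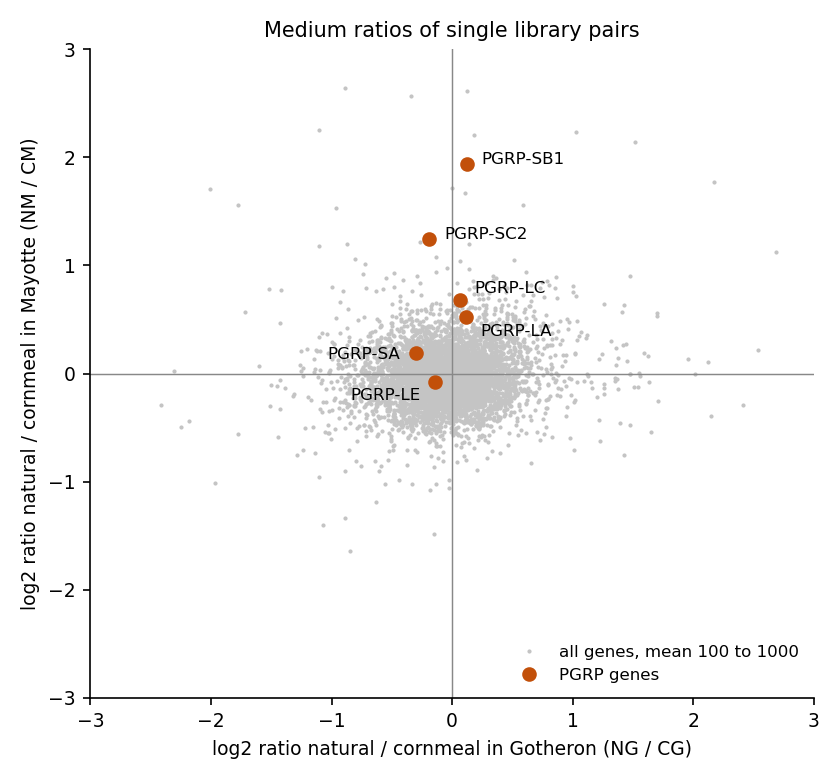
Log2 ratio of natural over cornmeal medium in Gotheron (horizontal axis) and in Mayotte (vertical axis), with 1 point per gene for the 6010 genes averaging 100 to 1000 (grey, 4 of them beyond the axes) and the 6 measured PGRP genes (orange). PGRP-SB1 lies at 0.12 and 1.94 and PGRP-SC2 at -0.19 and 1.25, above the bulk of the genes, while PGRP-SA and PGRP-LE lie within it.

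Between the populations, PGRP-SB1 averaged 162 ± 9.56 in Gotheron and 615 ± 510 in Mayotte (SD, n = 2 each). The log2 ratio of Gotheron over Mayotte was -1.93 with a standard error of 0.23 and an adjusted p of 1e-14 with the 2-step Wald test (1.6e-18 with the likelihood ratio test), and both Gotheron libraries lay below both Mayotte libraries. PGRP-SC2 averaged 353 ± 32.4 in Gotheron and 574 ± 330 in Mayotte, a log2 ratio of -0.70 with a standard error of 0.19 and an adjusted p of 0.00583, but CG lay above CM, so the populations overlapped. Both genes were called lower in Gotheron, 2 members of 8, beside 2.33% of all genes in that direction and 5.61% in either. As for the medium, the error of these calls came from genes of like mean. Their spread was far below that of PGRP-SB1 and PGRP-SC2 over all libraries, which includes the population difference itself. PGRP-SB1 alone also met the study's filter for consistency between replicates, as did 2.1% of all genes in that direction. The populations did not overlap in 3 of the 6 measured genes, PGRP-SA and PGRP-LE being the others, a share close to the 47.5% of the 12508 genes.

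The NM library carried most of both differences. Without it the log2 ratio of Gotheron over Mayotte was -0.66 for PGRP-SB1, with an adjusted p of 0.0532, and 0.051 for PGRP-SC2. Without NG, CG or CM the log2 ratio of PGRP-SB1 was -1.99, -1.87 or -2.59. Over the 2-step alternatives that kept all 4 libraries its adjusted p lay between 5.81e-27 and 3.38e-13. All of these take their error from a curve through other genes. The spread of PGRP-SB1 over all libraries, its population difference included, was 62.7 times its value on the curve as reported. These p-values do not measure its own spread. On the shared cornmeal food, CG over CM, PGRP-SB1 had a ratio of 0.608 (Clopper-Pearson interval 0.494 to 0.747), which was below 1 beyond counting error. PGRP-SC2 had 1.1 (0.949 to 1.28) there. PGRP-LC had 1.28 (1.13 to 1.44), PGRP-LA 1.18 (0.966 to 1.45), PGRP-LE 1.13 (0.915 to 1.4) and PGRP-SA 0.996 (0.807 to 1.23). None of the 6 reached a 2-fold difference on cornmeal. Of the 12508 genes 8.43% did, but these include genes averaging as little as 5. At such a share, 0 of 6 does not set the PGRP genes apart. On the natural media, NG over NM, the ratio was 0.173 for PGRP-SB1 (0.146 to 0.203), 0.408 for PGRP-SC2 (0.358 to 0.464), 0.708 for PGRP-SA (0.573 to 0.874) and 0.83 for PGRP-LC (0.747 to 0.922). The first 2 were at or below 0.5, as were 4.32% of the 12508 genes. The ratio was 0.892 for PGRP-LA (0.747 to 1.07) and 1.08 for PGRP-LE (0.872 to 1.34).

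PGRP-LC thus lay higher in Gotheron on cornmeal and lower in Gotheron on the natural media. The median over the 12508 genes was itself 1.09 for CG over CM and for NG over NM in the deposited scaling. Of the 6010 genes averaging 100 to 1000, 1408 had a CG over CM ratio as high as that of PGRP-LC or higher. Under TMM scaling PGRP-LC had 1.17 for CG over CM and 0.761 for NG over NM. PGRP-SC2 then had 1.01 for CG over CM, and PGRP-LE 0.992 for NG over NM. The population means of PGRP-LC were 635 ± 19.9 in Gotheron and 634 ± 209 in Mayotte. PGRP-LA averaged 227 ± 13.1 in Gotheron and 224 ± 57.1 in Mayotte. PGRP-SA averaged 170 ± 24.6 in Gotheron and 202 ± 19.2 in Mayotte, and PGRP-LE 187 ± 12.8 in Gotheron and 169 ± 6.35 in Mayotte. Log2 ratios of Gotheron over Mayotte for these 4 genes lay between -0.25 and 0.15, with adjusted p-values from 0.599 to 1. The median over all 12508 genes was 0.126 in the deposited scaling and -0.0014 after TMM scaling, so that the small positive ratios of PGRP-LC and PGRP-LA turned negative under TMM (-0.13 and -0.11).

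In the single-gene view, 2 libraries against 2 cannot give a two-sided exact permutation p below 0.33. Limma called 0 PGRP genes between the populations, beside 1.09% of the genes tested, and PGRP-SB1 alone had an unadjusted p under 0.05, at 0.0141 with an adjusted p of 0.231. An unadjusted p under 0.05 was found for 14% of the genes tested. With the medium as a block in limma PGRP-SB1 passed, at an adjusted p of 0.0358, and over all its limma, edgeR and DESeq2 alternatives the adjusted p ran from 3.95e-05 without NG to 1 with DESeq2 on 3 libraries.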

How the data were processed

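The authors cleaned the 3′ reads of the 4 libraries with seqclean, mapped them with ELAND to the D. melanogaster genome and the remainder to the D. simulans genome, and counted both under the D. melanogaster ortholog. CASAVA is named in the submitters' processing notes. Builds were not given in the sources used. The deposited signal is read counts times 1 factor per library, set by the authors, and 100% of the values were whole multiples of the smallest nonzero value, within 0.01. The factor of NG is close to 1, so its reads served for counting intervals and not for edgeR or DESeq2.

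In R 4.3.3, the Pearson dispersion around 1 mean was smoothed on the mean by loess (span 0.75, degree 2) and ratios were tested with a Wald test. A likelihood ratio test, named in the methods, was an alternative. The interaction was tested as the deviance of the additive model. Limma 3.58.1 was run on log2(value + 1) for genes averaging 5 or more. P-values were adjusted over all genes at 0.05, and the code was tested on simulated data, in which the Wald, likelihood ratio and interaction tests made more false calls than their threshold allows and limma did not. Alternatives were other dispersions, scalings, filters and pseudocounts, edgeR 4.0.16, DESeq2 1.42.0 and each library left out. The members were chosen with earlier results of these data known, and all with values are named. Replicate numbers follow accession order (1 cornmeal, 2 natural). The 2-step and interaction p-values rest on the spread of genes of like mean, and those of limma use each gene's own spread as well. None of them measures spread beyond these libraries. Identifiers did not match the reference table of Prin_Dsim_3.1, so no sequence or position is given. Reads shared with similar copies were not analysed.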

Additional observations from a re-analysis of the deposited data

Results flagged for a closer look

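PGRP-SB1 and PGRP-SC2 had an interaction term with an adjusted p under 0.05, which has no replicate check, since its error comes from other genes of like mean. The log2 ratio of natural over cornmeal was 0.12 in Gotheron and 1.94 in Mayotte for PGRP-SB1, a difference of -1.82 (adjusted p = 0.0363, and 0.012 to 0.061 over the alternatives). For PGRP-SC2 it was -0.19 in Gotheron and 1.25 in Mayotte, a difference of -1.43 (adjusted p = 0.0439, and 0.012 to 0.0686 over the alternatives). With a single library in each cell of the design, a difference between the populations cannot be told apart from a property of the NM library alone.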

How the results depend on the processing

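Of the gene-level ratios under the alternatives, 212 kept direction and call, 5 gained a call, 6 lost one and 23 changed direction. A ratio that changed direction was not also counted by its call, and PGRP-SC2 lost its 2-step calls where it changed direction. In the 2-step procedure the log2 ratio of Gotheron over Mayotte of PGRP-LC, near 0 as reported, was -0.13 under TMM, -0.12 under median-of-ratios scaling and -0.30 to 0.38 without 1 replicate. For PGRP-LA it was -0.11 under both scalings and -0.22 to 0.30 without 1 replicate. In limma the ranges without 1 replicate were -0.30 to 0.38 for PGRP-LC and -0.22 to 0.30 for PGRP-LA, with -0.086 and -0.088 under TMM. EdgeR gave -0.17 and -0.18, and DESeq2 -0.16 and -0.17. Without 1 replicate the log2 ratio of Gotheron over Mayotte of PGRP-SC2 lay between -1.20 and 0.051 in the 2-step procedure and between -1.20 and 0.048 in limma, positive only without Mayotte replicate 2 (NM). Its medium log2 ratio lay between -0.19 without either Mayotte replicate and 1.25 without either Gotheron replicate. That of PGRP-SA lay between -0.30 and 0.19.

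Without 1 replicate, the 2-step procedure called 621 to 1367 genes between populations and 93 to 407 between media, against 862 and 188, and 0 to 2 PGRP genes in each. Limma called 61 to 1086 genes and 0 to 1 PGRP genes. The interaction cannot be computed without a library. With the dispersion within populations 2160 genes were called, and with a quadratic curve 1 PGRP gene was called for the medium and 0 for the interaction. The interaction called 121 genes under TMM and 122 under median-of-ratios scaling, against 78. Between populations limma called 34 genes with low values kept, 13 with 1 prior variance and 314 with the medium as a replicate block, against 136, and edgeR called 516 and DESeq2 226 on the whole reads of CG, NM and CM, where Gotheron's lone library is assumed to vary like Mayotte's. The block and edgeR called 1 PGRP gene, PGRP-SB1. Replicate numbers come from accession order, so this block is the medium and pairs no samples. Between media limma called 0 genes with low values kept and 0 with 1 prior variance (696 and 761 at an unadjusted p under 0.05) and 8 under TMM, against 2. The cause was not tested. PGRP-LF and PGRP-SB2, with 0 to 2 reads a library, were too low to show a difference.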
